A study of Homo sapiens with 22 samples.

Results

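The mouse stroma of H3122 xenografts after 6 weeks of alectinib was compared between hHGF-NSG and NSG hosts. H3122 is a human lung adenocarcinoma cell line that carries an ALK fusion, and alectinib is an ALK inhibitor. Human tumour cells and mouse host cells were sequenced together as bulk tumour RNA, and the mouse genes give the host compartment. The 6 libraries were those labelled as 6 weeks of alectinib in the mouse gene table, 3 from hHGF-NSG and 3 from NSG hosts, out of 20 libraries with mouse values and 22 libraries in the series. Of 54532 mouse genes listed (22046 protein coding), 14287 reached 1 FPKM in at least 3 libraries and were tested. FPKM is a fragment count scaled to gene length and to the depth of the library, so levels can be set beside each other between genes.

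NSG mice are immunodeficient and lack mature T, B and natural killer cells, so their tumour stroma holds fibroblasts, vessels, macrophages, other myeloid cells and fat. HGF, hepatocyte growth factor, is a ligand made mainly by mesenchymal cells, and MET is its receptor tyrosine kinase on epithelial and other cells. Stromal HGF is known as a factor that can sustain tumour cells when another driver kinase is inhibited. Mouse HGF activates human MET poorly, which is the usual reason for hosts that make the human protein. Fibroblasts of a tumour lay down collagen and other matrix, and tenascins, podoplanin and cathepsin K are among the products of activated fibroblasts.

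The NSG group had H3122 tumours and alectinib for 6 weeks. The hHGF-NSG group had the same tumour cells, drug and time in a host whose name stands for human HGF on the NSG background. By their names both groups share the immunodeficient NSG background, and both had the drug. Whether the hosts also differ in genes other than human HGF is not stated in the labels. The untreated comparison had 3 NSG and 3 hHGF-NSG libraries, and the 2-week comparison had 4 and 4. The labels give no allele, promoter or insertion site for the human gene, no age of the mice and no dose of alectinib. Separate animals per library are not stated either, and each p-value therefore reflects only variation among the libraries at hand, which may be technical.

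Recovered mouse reads were 2594895 to 3340218 in the 6-week NSG libraries and 4356095 to 5766509 in the hHGF-NSG libraries. Values were given separately for the human and the mouse genome, and the sources used here do not say how reads matching both were treated. Mouse reads made up 16.9%, 21.9% and 18.7% of the mouse and human reads together in NSG and 24.3%, 28.6% and 29.0% in hHGF-NSG. The groups did not overlap, and the difference of means was 8.14 percentage points (27.3% ± 2.60 against 19.2% ± 2.51, SD, n = 3 and 3). The two-sided exact permutation p was 0.1, the smallest that 3 against 3 libraries allow. Marker genes of T and B cells (Cd3e, Cd3d, Cd3g and Pax5) and of natural killer cells (Ncr1, Nkg7, Prf1 and Gzma) were listed at 0 in all 6 libraries, while Col1a1, Csf1r and Pecam1 were read in all of them. Of the 16 genes in each of these lists, 5 reached the level for testing. The T and B cell list summed to 7.42 to 12.9 FPKM in NSG and 9.85 to 14.7 FPKM in hHGF-NSG, and the natural killer and granzyme list to 1.60 to 2.64 and 0.401 to 4.69 FPKM. Mitochondrially encoded genes took 2.32% to 2.85% of mouse reads in 5 libraries and 4.74% in hHGF-NSG replicate 3.

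One untreated library went against its label. In the library labelled NSG naive replicate 1, human HGF had 43 reads (0.320 FPKM), while the other NSG naive libraries with mouse values held 0 and 1 and the hHGF-NSG naive libraries 13, 28 and 44. Of 25 mouse genes called in the same direction at 2 and at 6 weeks, its level lay nearer to the treated hHGF-NSG mean for 20. For NSG naive replicates 3 and 4 that number was 3 each, and for the hHGF-NSG naive libraries it was 20 to 23. It takes no part in the 6-week means, but it enters the shared estimate of the spread, so counts are given with and without it. The 25 genes were chosen on the treated libraries, so they check the labels of the untreated libraries only.

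Human HGF was the first gene checked, since it separates the hosts by name. It was read at 0.549, 0.408 and 0.12 FPKM (79, 60 and 13 reads) in the hHGF-NSG libraries. In the 4 NSG libraries of 6 weeks that have human values it was read at 0.00741, 0, 0.0468 and 0 FPKM (1, 0, 6 and 0 reads), and a count of 0 allows up to 3 reads. No NSG value reached the lowest hHGF-NSG value, and the two-sided exact permutation p was 0.0286, the smallest possible for 3 against 4. The human table also holds the tumour cells' reads, so its HGF value is a level per tumour and not per host cell.

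Mouse Hgf was at 2.66, 1.84 and 1.60 FPKM in NSG and at 0.606, 0.931 and 0.191 FPKM in hHGF-NSG. All hHGF-NSG libraries were below all NSG libraries. The log2 difference was -0.96 (SE 0.35) and did not pass the test (limma adjusted p = 0.79). The groups also did not overlap at 2 weeks, where the log2 difference was -0.64. In untreated tumours they overlapped only through the library labelled NSG naive replicate 1 (0.872 FPKM), against 3.93 and 3.31 FPKM in the other NSG libraries and 0.123, 1.65 and 1.06 FPKM in hHGF-NSG. Mouse Met, the receptor, was low and overlapped between hosts (3.45, 2.92 and 3.64 against 2.86, 4.97 and 4.65 FPKM).

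**Figure D1:**
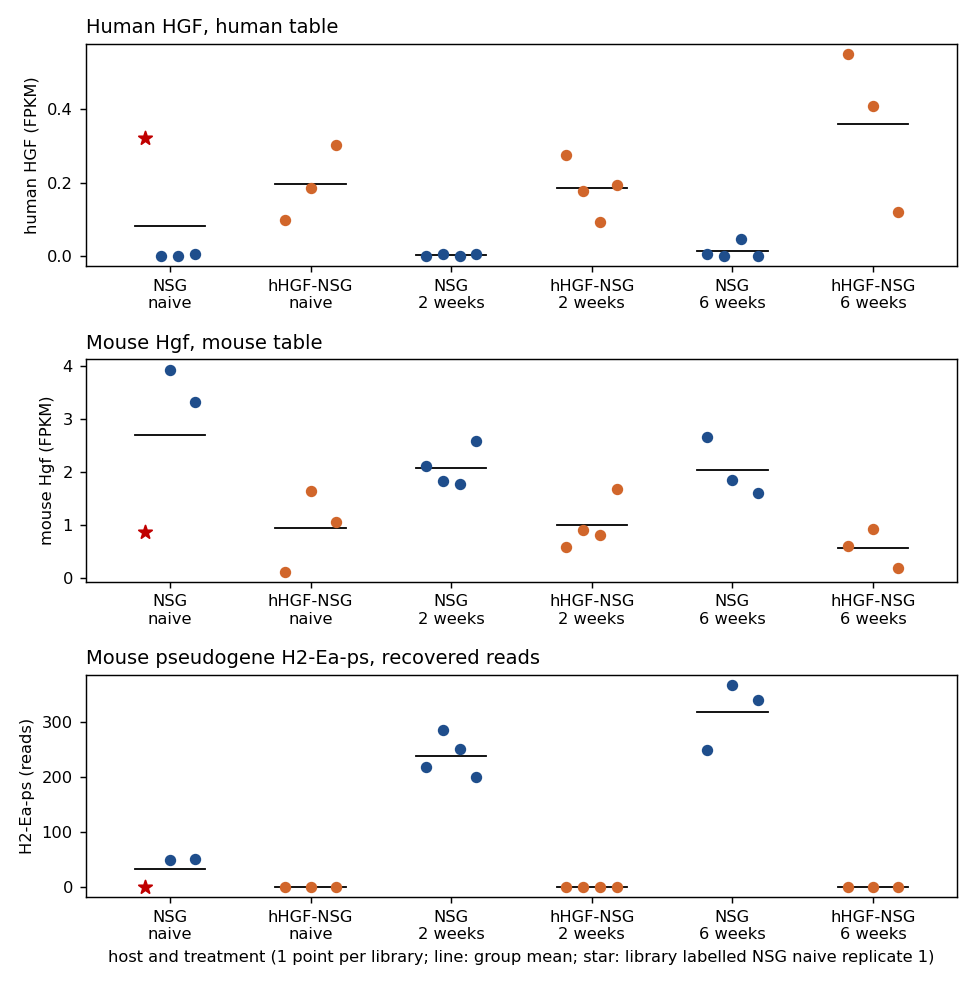
Human HGF (FPKM, top), mouse Hgf (FPKM, middle) and the mouse pseudogene H2-Ea-ps (recovered reads, bottom) in each library, by host and treatment, with group means as lines. The starred library, labelled NSG naive replicate 1, holds 0.320 FPKM of human HGF and 0 reads of H2-Ea-ps, while the hHGF-NSG libraries hold 0 or 1 reads of H2-Ea-ps.

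Around the ligand, 10 of 15 genes of the HGF and MET axis were expressed enough to test, and none passed. Their median log2 difference was -0.11, beside 0.02 for all tested genes. Plau, the urokinase protease that can activate pro-HGF, was at 58.0, 54.1 and 59.6 FPKM in NSG and 35.1, 32.4 and 35.1 FPKM in hHGF-NSG. Its groups did not overlap, and its log2 difference of -0.73 (SE 0.22) missed the threshold (limma adjusted p = 0.428). Plat, the tissue plasminogen activator, and the syndecans Sdc1 and Sdc4, heparan sulphate carriers that bind HGF, overlapped between hosts with log2 differences of -0.12 to -0.00.

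Across all tested mouse genes, 36 differed between hosts at 6 weeks (0.252% of 14287, limma with Benjamini-Hochberg adjustment, threshold 0.05). Of these, 26 were lower (0.182%) and 10 were higher (0.07%) in hHGF-NSG, and 707 genes (4.95%) had an unadjusted p under 0.05. The groups did not overlap for any of the 36 (14.3% of all genes). The calls were made on these same libraries, so this adds no separate evidence. The 36 comprised 21 protein-coding genes, 6 higher and 15 lower, 12 pseudogenes and 3 other non-coding genes. With any 1 of the 6 libraries left out, 8 to 11 genes passed, and Tnn and Hc were the protein-coding genes that passed each time. Leaving out the library labelled NSG naive replicate 1, 54 genes passed (0.378%), 39 lower (0.273%) and 15 higher (0.105%), and they included all 36.

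Among the lower genes, Tnn, Ctsk, Pdpn and Sema3d are known from fibroblasts or matrix. In the 6 fits with 1 library of 6 weeks left out, Tnn passed in 6, Pdpn and Sema3d in 1 each and Ctsk in 0. Tnn encodes tenascin-W, a matrix glycoprotein of tumour stroma and developing bone, and lies at chr1:160085029-160153580 (mm10). It was at 41.3, 49.1 and 34.3 FPKM in NSG and 2.03, 2.24 and 0.983 FPKM in hHGF-NSG. All hHGF-NSG libraries were below all NSG libraries, and the log2 difference was -3.97 (SE 0.38, limma adjusted p = 2.78e-05). No human TNN was read in these libraries. None of the other tested genes of the matrix glycoprotein list was called, and the list of 25 had a median of -0.13, which became 0.01 without hHGF-NSG replicate 3.

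Ctsk encodes cathepsin K, a protease that degrades collagen. Ctsk was at 432, 593 and 808 FPKM in NSG and 141, 173 and 206 FPKM in hHGF-NSG (log2 difference -1.78, SE 0.35, limma adjusted p = 0.032). It was the most abundant of the lower protein-coding genes, while human CTSK had means of 20.6 FPKM in NSG and 19.6 FPKM in hHGF-NSG. Pdpn, podoplanin, a surface glycoprotein of activated fibroblasts and lymphatic vessels, was at 82.7, 95.9 and 95.6 FPKM in NSG and 55.5, 46.1 and 43.5 FPKM in hHGF-NSG (-0.91, SE 0.16, limma adjusted p = 0.0228). Sema3d, a secreted semaphorin guidance cue, was at 11.3, 10.7 and 8.04 FPKM in NSG and 2.41, 3.97 and 1.33 FPKM in hHGF-NSG (-1.68, SE 0.33, limma adjusted p = 0.0323).

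Grem1, gremlin, a secreted BMP antagonist of fibroblasts, was at 8.70, 6.86 and 8.33 FPKM in NSG and 1.35, 0.722 and 0.331 FPKM in hHGF-NSG. Its groups were far apart, but the log2 difference of -2.35 (SE 0.62) did not pass with all libraries (limma adjusted p = 0.247). Without the library labelled NSG naive replicate 1 it passed (adjusted p = 0.0195). The same held for P4ha3, a subunit of a collagen prolyl hydroxylase, at 23, 30.6 and 19 FPKM in NSG against 6.55, 4.94 and 5.11 FPKM in hHGF-NSG (log2 difference -1.93, limma adjusted p = 0.112 with all libraries and 0.00119 without that library). P4ha3 was chosen after its values were seen, as was Fcgr2b, an inhibitory Fc receptor of myeloid cells, which was at 44.7, 45.5 and 40.3 FPKM in NSG and 25.3, 18.4 and 20.3 FPKM in hHGF-NSG (-1.01, limma adjusted p = 0.177 with all libraries and 0.0342 without that library).

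Hc encodes complement component C5. Hc, at chr2:34983331-35061438, was at 5.41, 6.56 and 6.14 FPKM in NSG and 0.926, 0.731 and 0.730 FPKM in hHGF-NSG (log2 difference -1.97, SE 0.20, limma adjusted p = 3.67e-05). Within each host its libraries were close together. Of the 20 genes tested in the complement list, which does not hold Hc, none passed. Among these, 13 had positive and 7 negative log2 differences, with a median of 0.14. C7, another terminal component, was at 19.7, 10.1 and 10.8 FPKM in NSG and 42.1, 33.0 and 51.8 FPKM in hHGF-NSG (1.61, limma adjusted p = 0.955), so its libraries were ordered opposite to those of Hc.

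A receptor of innate immune cells was also among the lower genes. Tlr7, an endosomal sensor of single-stranded RNA in macrophages and dendritic cells, was at 16.8, 15.2 and 17.2 FPKM in NSG and 7.77, 5.05 and 5.04 FPKM in hHGF-NSG (log2 difference -1.34, SE 0.23, limma adjusted p = 0.0146). It was lower in every hHGF-NSG library than in any NSG library. Its chromosome neighbours are described with the stretches.

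Gbp2b, an interferon-inducible GTPase, was at 4.04, 4.89 and 8.74 FPKM in NSG and 0.220, 0.499 and 0.729 FPKM in hHGF-NSG (log2 difference -2.17, SE 0.37, limma adjusted p = 0.0167). Trim12c, of the tripartite motif family, was at 6.59, 5.92 and 4.92 FPKM in NSG and 0.887, 0.847 and 0.734 FPKM in hHGF-NSG (-1.90, SE 0.31, limma adjusted p = 0.0124). Both belong to families of near-identical copies, so the split of reads among copies is uncertain. Their direction was not that of the interferon response list, in which 19 of 25 tested members had positive log2 differences (median 0.27) and none passed. Cxcl9, a chemokine induced by interferon gamma, was at 3.30, 3.15 and 2.29 FPKM in NSG and 6.46, 7.0 and 13.2 FPKM in hHGF-NSG (1.28, limma adjusted p = 0.574).

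Genes of the mouse histocompatibility complex, H2, went in both directions. H2-T22, a non-classical class I gene at chr17:36037128-36042747, was at 14.6, 14.8 and 15.6 FPKM in NSG and 2.79, 3.97 and 4.62 FPKM in hHGF-NSG (log2 difference -1.76, SE 0.31, limma adjusted p = 0.0216). Its neighbour H2-T23, the mouse Qa-1 gene, was at 42.0, 44.8 and 40.5 FPKM in NSG and 4.45, 7.5 and 6.17 FPKM in hHGF-NSG. That log2 difference of -2.65 (SE 0.58) missed the threshold (limma adjusted p = 0.0829) and passed without the library labelled NSG naive replicate 1 (adjusted p = 0.000277). The classical class I gene H2-D1 was higher, at 428, 344 and 448 FPKM in NSG and 665, 747 and 695 FPKM in hHGF-NSG (0.79, SE 0.15, limma adjusted p = 0.032).

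Among the 19 protein-coding genes of chromosome 17 whose symbols begin with H2-, 7 had negative and 12 positive log2 differences. H2-Q6 and H2-Q7 were without overlap on the higher side in hHGF-NSG, with log2 differences of 1.2 and 1.30 that did not pass with all libraries. H2-Q7 passed without the library labelled NSG naive replicate 1 (limma adjusted p = 0.0248). B2m, the shared light chain of class I molecules, had a log2 difference of 0.31 with overlapping groups. The pseudogene H2-Ea-ps was read 249, 367 and 340 times in NSG and 0, 0 and 1 times in hHGF-NSG (log2 difference -7.10, limma adjusted p = 0.00212). Class I genes resemble each other closely, so reads among them may be shared in a way the tables do not show.

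The other lower protein-coding genes do not belong to one class. Ndufs5, a subunit of mitochondrial complex I, was at 18.0, 26.1 and 40.5 FPKM in NSG and 4.34, 3.28 and 1.33 FPKM in hHGF-NSG (log2 difference -2.88, SE 0.56, limma adjusted p = 0.032). Human NDUFS5 stood at means of 109 FPKM in both hosts. Prps2, a phosphoribosyl pyrophosphate synthetase of nucleotide synthesis, was at 14.4, 13.8 and 11.7 FPKM in NSG and 5.46, 5.05 and 5.61 FPKM in hHGF-NSG (-1.17, SE 0.22, limma adjusted p = 0.027). Hccs, the synthase that attaches haem to cytochrome c, was at 10.4, 8.32 and 6.96 FPKM in NSG and 3.50, 3.25 and 3.73 FPKM in hHGF-NSG (-1.08, SE 0.18, limma adjusted p = 0.0124). Zfp991 (-2.04) and AK157302 (-1.76) also passed, at means under 5 FPKM.

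Besides H2-D1, Hbb-bt, Kcnj15, 1500015O10Rik and Flad1 were higher in hHGF-NSG. Hbb-bt, an adult beta-globin gene, was at 13.6, 11.9 and 8.89 FPKM in NSG and 54.0, 37.6 and 64.4 FPKM in hHGF-NSG (log2 difference 2.07, SE 0.38, limma adjusted p = 0.0246). Kcnj15, an inwardly rectifying potassium channel, had a log2 difference of 1.52 (SE 0.31, limma adjusted p = 0.0415). 1500015O10Rik, which encodes augurin, a secreted peptide, was at 56.3, 45.9 and 50.7 FPKM in NSG and 207, 114 and 91.3 FPKM in hHGF-NSG (1.33, SE 0.26, limma adjusted p = 0.0357).

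Flad1, the synthase of the cofactor FAD, was at 5.04, 4.71 and 3.06 FPKM in NSG and 9.79, 16.1 and 11.1 FPKM in hHGF-NSG (log2 difference 1.33, SE 0.26, limma adjusted p = 0.0357). All 4 genes were higher in each hHGF-NSG library than in each NSG library.

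**Figure D2:**
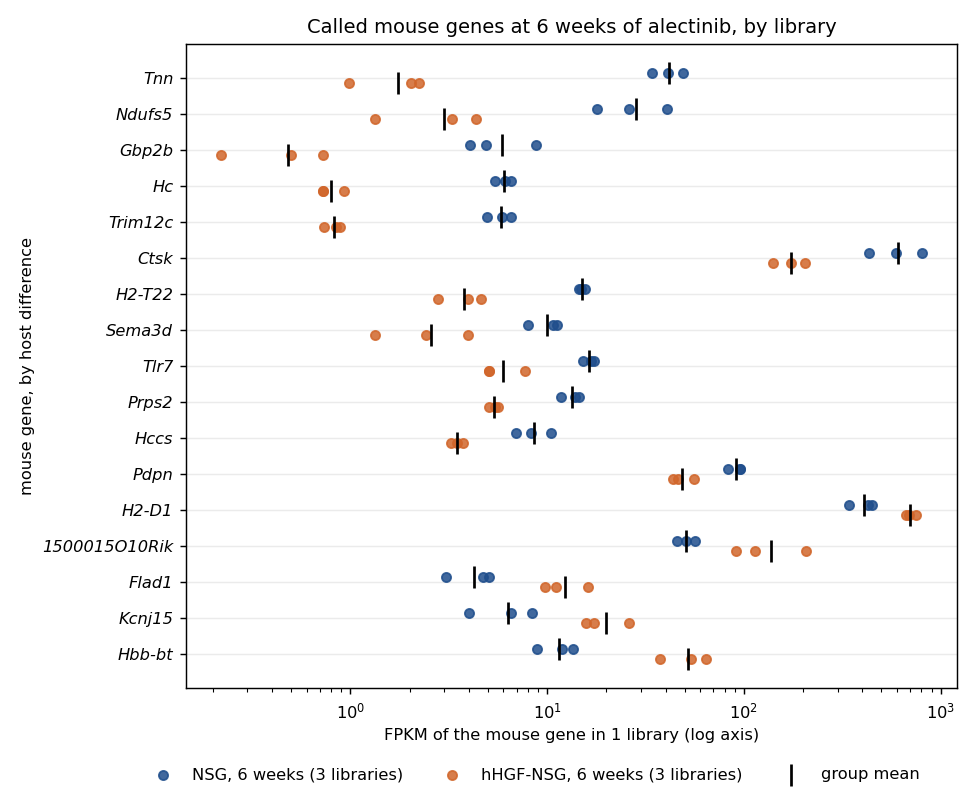
FPKM on a log axis in each 6-week library for 17 called protein-coding genes with a mean of at least 5 FPKM in the higher group, ordered by host difference, with the 3 NSG and 3 hHGF-NSG libraries as points and group means as bars. Tnn shows the widest gap, from 34.3 FPKM in the lowest NSG library to 2.24 FPKM in the highest hHGF-NSG library.

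The 6-week genes were followed in the other states. All 21 protein-coding genes kept the sign of the log2 difference at 2 weeks and in untreated tumours. Of the 36 calls, 25 were also called in the same direction at 2 weeks, where 53 genes passed in all (0.371%; 18 higher, 0.126%, and 35 lower, 0.245%), and 3 in untreated tumours, where 6 passed (0.042%). Leaving out the library labelled NSG naive replicate 1, only NSG naive replicates 3 and 4 stood for untreated NSG. In that fit 119 genes passed in untreated tumours (0.833%, with 47 higher, 0.329%, and 72 lower, 0.504%), 19 of the 36 in the same direction. Of the 21 protein-coding genes, 20 kept their sign. Replicates 3 and 4 stood apart from treated NSG libraries in Gm6161 and Tstd3, given at the end. Whether traits of these libraries raised the count was not tested. The same fit gave 76 genes at 2 weeks (0.532%). For 14 of the 36 the hosts were without overlap in the same direction in all 3 states with all libraries. Over all genes this held for 19 on the lower (0.133%) and 10 on the higher side (0.07%). The 36 had been called on the 6-week libraries and none overlapped there, so these shares are not a like comparison. Of all tested genes, 2041 were without overlap at 6 weeks. The comparisons in the 3 states share a model but no libraries.

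Whether the host difference at 6 weeks differed from that in untreated tumours was tested directly for all genes. With all libraries, 1 gene passed (0.007%), the microRNA gene Mir7013 with at most 4 reads, beside 985 genes (6.89%) at an unadjusted p under 0.05, and without the library labelled NSG naive replicate 1, 5 genes passed, of which Tnn and Tstd3 are protein coding. Tnn was at 38.4 and 55.9 FPKM in NSG naive replicates 3 and 4 and at 13.8 FPKM in the library labelled NSG naive replicate 1. In hHGF-NSG it was at 16.0, 17.4 and 27.1 FPKM untreated, 1.31 to 3.16 FPKM at 2 weeks and 0.983 to 2.24 FPKM at 6 weeks. In NSG it stayed between 22.1 and 49.1 FPKM under treatment. The difference between the host effects was -3.33 (SE 0.54, limma adjusted p = 0.053) with all libraries and -2.77 (SE 0.43, adjusted p = 0.0202) without that library.

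Hc showed a different course. In NSG it was at 0.540 and 0.524 FPKM in naive replicates 3 and 4, 2.40 to 3.25 FPKM at 2 weeks and 5.41 to 6.56 FPKM at 6 weeks. In hHGF-NSG it was at 0, 0 and 0.061 FPKM untreated (0 to 1 reads), 0.221 to 0.575 FPKM at 2 weeks and 0.730 to 0.926 FPKM at 6 weeks. The library labelled NSG naive replicate 1 held 0.0715 FPKM (1 read). By FPKM the groups did not overlap at any of these times. In untreated tumours this rests on counts near the floor. NSG naive replicates 3 and 4 held 3 and 4 reads, and the library labelled NSG naive replicate 1 held 1 read, as did hHGF-NSG naive replicate 3. The change of the host difference from untreated to 6 weeks was -1.55 (SE 0.28), which did not pass (limma adjusted p = 0.0937). Sema3d had a log2 difference of -0.03 in untreated tumours with all libraries and of -0.52 leaving out the library labelled NSG naive replicate 1. Its change to 6 weeks did not pass either way (-1.64, limma adjusted p = 0.537, and -1.16, adjusted p = 0.301). From 2 to 6 weeks Mir7013 alone passed in limma, beside 371 genes (2.6%) at an unadjusted p under 0.05.

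**Figure D3:**
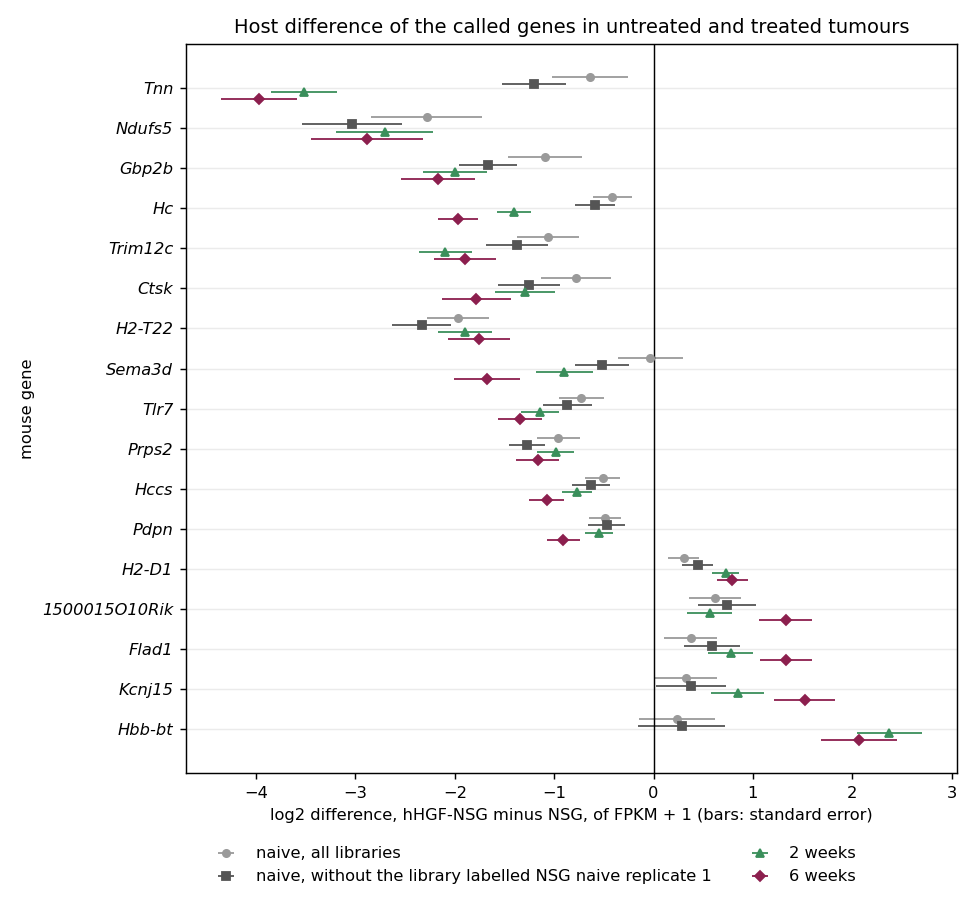
Log2 host difference (hHGF-NSG minus NSG, of FPKM + 1) with its standard error for the same 17 called protein-coding genes in untreated tumours, with and without the library labelled NSG naive replicate 1, and at 2 and 6 weeks of alectinib. At 2 and 6 weeks each of the 17 genes has the same sign, and in untreated tumours Sema3d lies at -0.03 with all libraries and at -0.52 without that library.

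Some of these genes are neighbours on a chromosome. Tlr7, Prps2 and Hccs lie on chromosome X within a stretch from Tmsb4x to Mid1, chrX:167207093-170005736 in mm10, which was chosen after its values were seen. All 8 protein-coding genes tested there had negative log2 differences at 6 weeks, from -1.34 to -0.56, with a median of -1.03. For 7 of the 8 the groups did not overlap, all lower in hHGF-NSG, beside 6.93% of all tested genes. At 2 weeks the 8 genes had a median of -1.04 and 5 calls, and in untreated tumours a median of -0.52 (-0.68 leaving out the library labelled NSG naive replicate 1).

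The stretch holds genes of unlike function. Tmsb4x, thymosin beta 4, which binds actin monomers and is among the most abundant transcripts, had a log2 difference of -0.82 (SE 0.27, limma adjusted p = 0.599). Tlr8, a receptor next to Tlr7, was at 12.1, 10.9 and 6.6 FPKM in NSG and 5.09, 3.49 and 3.44 FPKM in hHGF-NSG (-1.10, limma adjusted p = 0.135). Msl3, of the chromatin complex male-specific lethal, was at 24.7, 22.9 and 21.4 FPKM in NSG and 10.7, 11.1 and 11.7 FPKM in hHGF-NSG (-0.98, limma adjusted p = 0.0579). The 10 tested protein-coding genes before Tmsb4x and within 3 Mb of Tlr7 had a median of -0.01, and none was without overlap.

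On chromosome 3 the direction was the opposite. Flad1 lies in a row of genes from Gm15417 to Pmvk, chr3:89391850-89469013, also chosen after the values were seen. All 6 protein-coding genes in this row were without overlap on the higher side in hHGF-NSG, beside 7.36% of all tested genes, with log2 differences of 0.83 to 1.68 and a median of 1.09. At 2 weeks the median was 0.91 and in untreated tumours 0.76 (1.05 leaving out the library labelled NSG naive replicate 1). The 51 other tested protein-coding genes within 1 Mb of Flad1 had a median of 0.04 and a range of -0.45 to 0.45.

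Shc1, an adaptor protein of receptor tyrosine kinases that also acts below MET, was at 20.7, 22.2 and 22.7 FPKM in NSG and 39.4, 41.0 and 40.7 FPKM in hHGF-NSG. Its libraries were tight within each host, and its log2 difference of 0.86 (SE 0.18) missed the threshold with all libraries (limma adjusted p = 0.0612) and passed without the library labelled NSG naive replicate 1 (adjusted p = 0.00464). Pygo2, a co-activator of Wnt signalling, was at 16.8, 18.3 and 16.7 FPKM in NSG and 30.4, 31.2 and 32.9 FPKM in hHGF-NSG (0.83, limma adjusted p = 0.303 with all libraries and 0.0109 without that library). Pmvk, a kinase of the mevalonate pathway, was at 11.6, 13.4 and 20.4 FPKM in NSG and 32.3, 61.3 and 39.0 FPKM in hHGF-NSG (1.47, limma adjusted p = 0.355). Cks1b, a cell cycle subunit, had a log2 difference of 1.68 and Pbxip1 one of 0.83, neither of which passed (limma adjusted p = 0.339 and 0.112). Within 1 Mb of Tnn, Hc, Pdpn and Gbp2b no other tested gene was called. Trim12c (log2 difference -1.90) and Hbb-bt (2.07), both on chromosome 7, were each the 1 called gene within 1 Mb of the other. Ctsk had 1 called gene within 1 Mb, Mir7013.

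**Figure D4:**
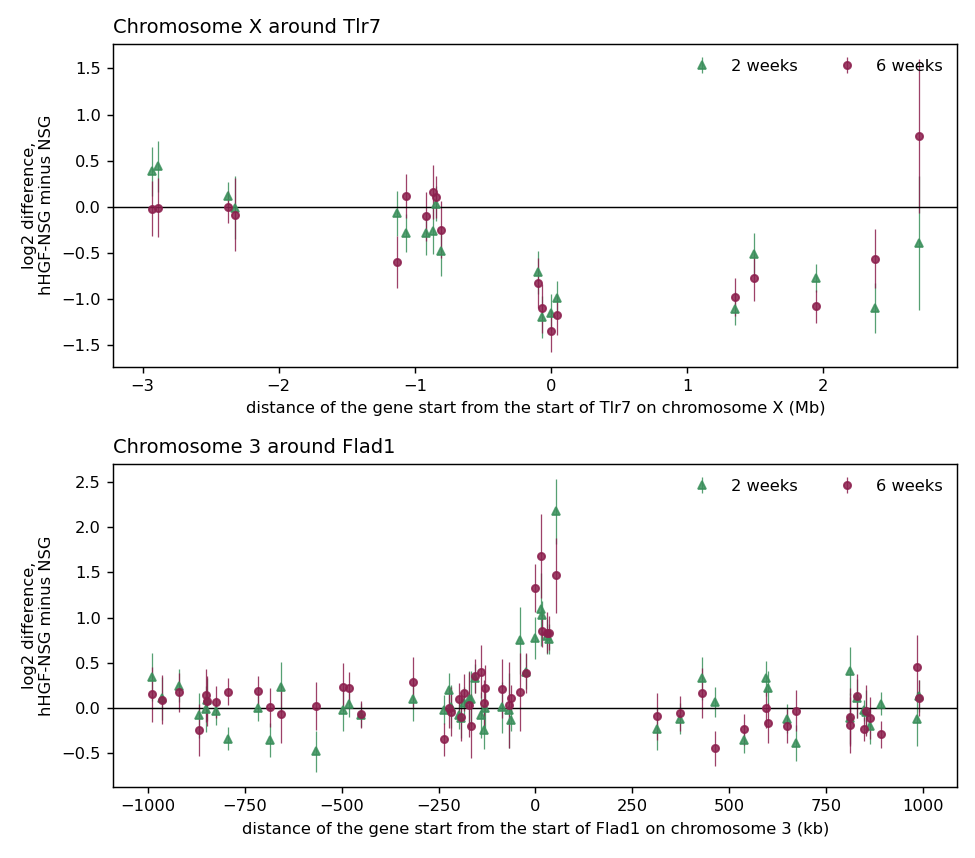
Log2 host difference with its standard error at 2 and 6 weeks for tested protein-coding genes, by distance of the gene start from Tlr7 on chromosome X (top, Mb) and from Flad1 on chromosome 3 (bottom, kb). Genes of the X stretch lie between -1.34 and -0.56 and those of the chromosome 3 row between 0.83 and 1.68 at 6 weeks. The other plotted genes lie on both sides of 0 at 6 weeks, from -0.60 to 0.77 on chromosome X and from -0.45 to 0.45 on chromosome 3.

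Gene lists for the cells and pathways of tumour stroma gave few calls, and their values are described here by count and median. In bulk tissue, fewer cells of a type and less RNA per cell cannot be told apart. Among 14 pan-fibroblast markers, 1 passed, Pdpn, and 11 had negative log2 differences, with a median of -0.35. Of these 14, 3 were without overlap on the lower side (6.93% of all genes) and 1 on the higher side (7.36%). Of 20 collagen chains, none passed and 15 had negative differences, with a median of -0.40. Without overlap were 6 collagens on the lower side (6.93% of all genes) and 2 on the higher side (7.36%). Col1a2, a chain of fibrillar type I collagen, was at 973, 1494 and 1401 FPKM in NSG and 872, 817 and 905 FPKM in hHGF-NSG (-0.55, limma adjusted p = 1).

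Single collagens lay on both sides. Col7a1, the anchoring fibril collagen, was at 7.59, 10 and 5.53 FPKM in NSG and 3.24, 3.06 and 3.56 FPKM in hHGF-NSG (log2 difference -0.99, limma adjusted p = 0.881). Col4a1 and Col15a1, collagens of basement membranes, were without overlap on the other side, with log2 differences of 0.59 and 0.52 (limma adjusted p = 0.973 and 0.881). Small leucine-rich proteoglycans such as Dcn and Lum, which bind collagen fibrils, had a median of -0.34 over 10 tested genes. Metalloproteinases and their inhibitors had a median of -0.23 over 21, with 4 genes without overlap on the lower side (6.93% of all genes) and 4 on the higher side (7.36%).

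Contractile and TGF-beta genes were nearer to the median of all genes. The 16 myofibroblast genes had a median of -0.09, which became 0.11 without hHGF-NSG replicate 3. Acta2, smooth muscle actin, overlapped at 128, 114 and 148 against 181, 152 and 75.6 FPKM. Ctgf, a matricellular target of TGF-beta and YAP, was at 446, 425 and 390 FPKM in NSG and 351, 241 and 189 FPKM in hHGF-NSG (log2 difference -0.73, limma adjusted p = 0.717). The 19 genes of TGF-beta ligands and response, Grem1 among them, had a median of -0.12, and 0.02 without hHGF-NSG replicate 3.

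Endothelial markers gave no call. Of 24 tested, 23 had positive log2 differences, 10 were without overlap on the higher side (7.36% of all genes), with a median of 0.36 (0.29 to 0.44 with any 1 library left out). Plvap, a protein of endothelial fenestrae, was at 104, 91.5 and 86.7 FPKM in NSG and 163, 113 and 158 FPKM in hHGF-NSG (0.60, limma adjusted p = 0.628). Cdh5, the adhesion molecule VE-cadherin, was at 37.7, 33.9 and 23.2 FPKM in NSG and 41.3, 50.7 and 44.2 FPKM in hHGF-NSG (0.53, limma adjusted p = 0.729). The endothelial median was 0.05 at 2 weeks and -0.14 in untreated tumours. Pericyte genes had a median of 0.11, and Rgs5 overlapped between hosts.

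Macrophage markers gave no call either. The 27 tested genes had a median of 0.01 (-0.12 to 0.07 with any 1 library left out), with 14 positive and 13 negative differences. Csf1r, the receptor for the main macrophage growth factor, was at 92.2, 101 and 80.8 FPKM in NSG and 90.4, 73.2 and 71.8 FPKM in hHGF-NSG, and Adgre1, which encodes the F4/80 antigen, overlapped as well. Cx3cr1, a chemokine receptor of resident and patrolling cells, was at 42.6, 47.4 and 40.5 FPKM in NSG and 30.4, 27.0 and 23.3 FPKM in hHGF-NSG (log2 difference -0.68, limma adjusted p = 0.507). Ccr2, the receptor that brings monocytes into tissue, was at 8.28, 6.38 and 6.96 FPKM in NSG and 2.61, 3.52 and 4.09 FPKM in hHGF-NSG (log2 difference -0.91, SE 0.21, limma adjusted p = 0.128). At 2 weeks it passed, with a log2 difference of -1.36 (limma adjusted p = 0.00133). Of the 27 macrophage genes, 3 were without overlap on the lower side (6.93% of all genes), Cx3cr1 and Ccr2 among them. On the higher side 2 were without overlap (7.36%). The part of macrophage content in the Tlr7 difference was not tested.

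Other myeloid genes gave no call. Mmp9 and Il1b, a gelatinase and a cytokine of neutrophils and macrophages, were without overlap on the lower side, with log2 differences of -1.03 and -1.02 (limma adjusted p = 0.831 and 0.902). Both belong to the neutrophil list, in which 10 genes were tested, 4 with positive and 5 with negative log2 differences (median -0.01). In that list, 2 genes were without overlap on the lower side (6.93% of all genes) and 1 on the higher side (7.36%). The 9 tested class II presentation genes had a median of -0.29. Cd74, the invariant chain, was at 630, 678 and 698 FPKM in NSG and 545, 523 and 489 FPKM in hHGF-NSG (-0.37, limma adjusted p = 1). The 9 tested mast cell genes all had positive differences, with a median of 0.73 that became 0.32 without hHGF-NSG replicate 3.

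Fat markers gave no call. All 27 white adipocyte genes had positive log2 differences, with a median of 0.50 that became 0.27 without hHGF-NSG replicate 2, and 8 were without overlap on the higher side (7.36% of all genes). Cfd, the adipokine adipsin, was at 4071, 3109 and 3573 FPKM in NSG and 5100, 9459 and 9208 FPKM in hHGF-NSG (1.10, limma adjusted p = 0.985). Adipoq, adiponectin, overlapped at 554, 454 and 544 against 490, 979 and 1045 FPKM. The white adipocyte median was 1.01 at 2 weeks and 0.68 in untreated tumours with all libraries. Thermogenic fat genes had a median of -0.26, which became 0.00 without hHGF-NSG replicate 1.

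The other globins were read beside Hbb-bt. Hba-a1, an alpha-globin gene, was at 238, 141 and 158 FPKM in NSG and 467, 401 and 668 FPKM in hHGF-NSG (log2 difference 1.51, limma adjusted p = 0.323). Hbb-bs, the paralog of Hbb-bt, was at 196, 148 and 150 against 302, 244 and 422 FPKM (0.94, limma adjusted p = 0.802). Hba-a2, a near-identical copy of Hba-a1, went the other way, at 6.07, 5.17 and 0.986 FPKM in NSG and at 0 in hHGF-NSG (limma adjusted p = 0.872 with all libraries and 0.0248 leaving out the library labelled NSG naive replicate 1), so the split of reads between the alpha-globin copies is uncertain. The globins are carried by blood in the tissue, and the part of blood content in the Hbb-bt difference was not tested.

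Nerve and growth genes were not called. Of 10 tested Schwann cell and nerve genes, 7 had positive and 3 negative log2 differences, with a median of 0.27. Without overlap were 3 on the higher side (7.36% of all genes) and 0 on the lower side (6.93%). Prx, periaxin of myelinating Schwann cells, had a log2 difference of 1.2 (limma adjusted p = 0.128). The 28 growth factor genes, 24 genes of ERK feedback and early response, 22 proliferation genes and 19 hypoxia and glycolysis genes had medians of 0.02, 0.08, 0.07 and 0.09 with no call. The growth factor median turned to -0.02 without hHGF-NSG replicate 1 and to -0.01 without NSG replicate 1. The ERK feedback median turned to -0.08 without NSG replicate 2 and to -0.06 without NSG replicate 3, and was 0.35 without NSG replicate 1. The hypoxia median turned to -0.05 without hHGF-NSG replicate 2. Further genes with large differences and no overlap that did not pass were Tpsb2, Prr32, Sfrp5, Tcerg1l, Cytl1 and Chac1, with log2 differences of 1.60 to 2.49.

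**Figure D5:**
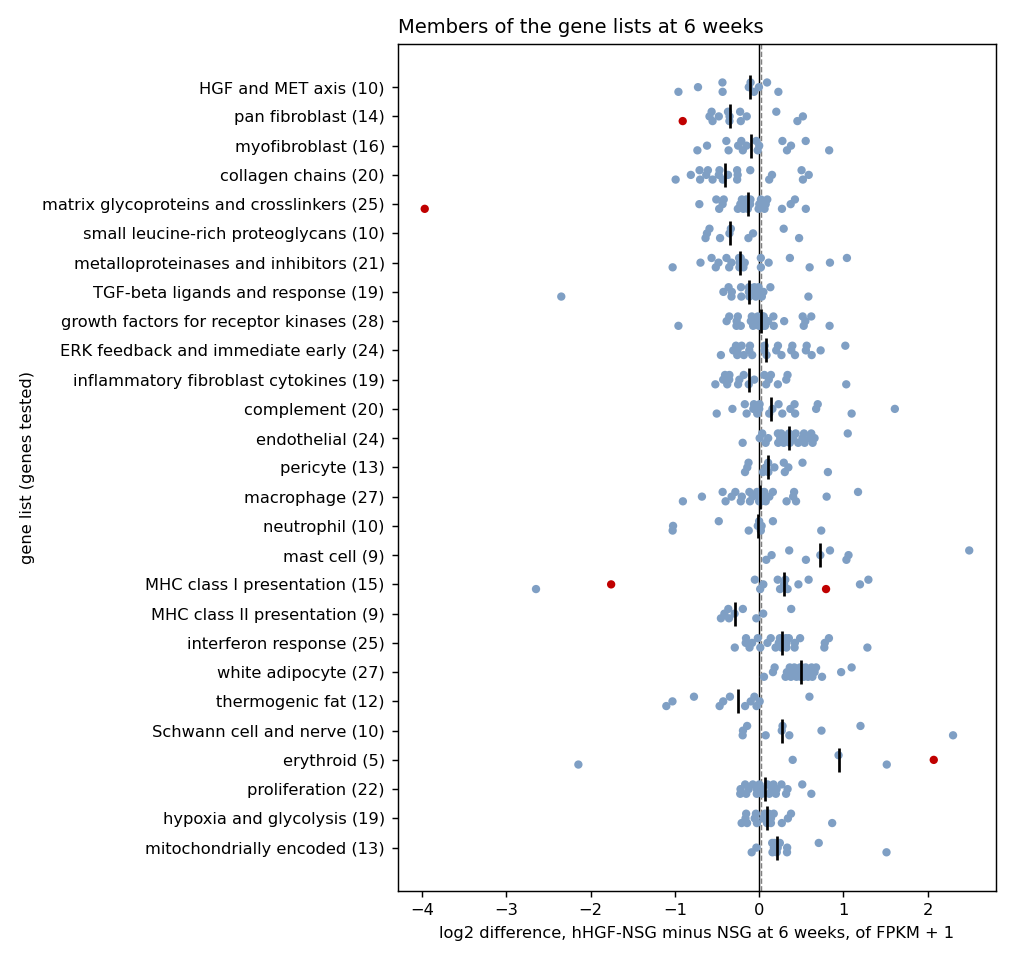
Log2 host difference at 6 weeks of each tested member of 27 gene lists (points, called genes in red), with list medians as bars, 0 as a solid line and the median of all tested genes, 0.02, as a dashed line. The white adipocyte median lies at 0.50 and the collagen median at -0.40, and Tnn is the isolated point at -3.97.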

How the data were processed

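Bulk RNA of xenograft tumours was sequenced in 22 libraries. Per the labels, RNA was isolated with TRIzol. Per the submitters' processing notes, the builds were GRCh38, hg38 and mm10, and DESeq2 is named without a role. No aligner, annotation or treatment of reads matching both species is stated there. The values are FPKM per gene as deposited by the authors. Whole reads were recovered from FPKM and gene length (100% of values within 0.05 of a whole number) and used for depth and an added count model.

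Values were tested as log2(FPKM + 1), a scale that understates changes of low genes, for genes with FPKM of at least 1 in at least 3 libraries. The fit was limma 3.58.1 in R 4.3.3 (empirical Bayes with trend) with 1 mean for each of 6 groups over 20 libraries, and Benjamini-Hochberg adjustment over all 14287 genes at 0.05. SE is limma's moderated standard error. Shares and human HGF were compared by exact permutation in Python 3.11.15 with scipy 1.17.1. Libraries within a 6-week group differed by more than counting noise. Mouse values of NSG replicate 4 at 6 weeks and of NSG naive replicate 2 were not analysed here. The fit was also run on simulated reads with the same spread for every gene and no library effects. That setting is simpler than these libraries, so it does not vouch for the calls. The limit of 3 reads for a count of 0 covers counting error only.

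Named genes were Hgf and Met, up to 15 protein-coding genes per direction with the largest differences, no overlap and a mean of at least 5 FPKM in the higher group (called genes before others), and up to 4 per list (called or most abundant members). Other genes named, among them the neighbours on chromosomes 3 and X, Ccr2, Zfp991, AK157302, Tstd3, B2m, H2-Q6, H2-Q7, the other globins, Cxcl9, Cx3cr1, Csf1r, Adgre1, Pecam1, Adipoq, Col4a1, Col7a1, Col15a1 and Prx, fall outside this rule and were chosen after their values were seen. Some genes that these rules name are not reported here and are left out of the plots by gene. The genes, lists and stretches were chosen with earlier results of these data known. Alternatives were a pseudocount of 0.1, no filter, median-ratio rescaling, a replicate block, voom on recovered reads, thinning of reads, the 6-week libraries alone, array weights and each library left out. Leaving out the library labelled NSG naive replicate 1 was chosen after seeing the data.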

Additional observations from a re-analysis of the deposited data

Results flagged for a closer look

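In the NSG libraries of 6 weeks, 1 of 4 stood apart in human HGF, at 0.0468 FPKM (6 reads), with a gap to the next library of 0.842 of the whole range. It was below the lowest hHGF-NSG library. Chance puts 1 in 20 such groups past the limit used only where values are normally distributed. The 4 libraries held 1, 0, 6 and 0 reads, so that rate does not apply here.

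The miRNA gene Mir7013 had a host difference at 6 weeks that differed from that in untreated tumours by 3.03 (SE 0.37, limma adjusted p = 0.00214) and from that at 2 weeks by 3.03 (SE 0.35, limma adjusted p = 0.000793). It rests on 2, 2 and 4 reads in the hHGF-NSG libraries of 6 weeks and 0 reads in the other libraries, over a gene of 72 bases, and a count of 0 allows up to 3 reads. With voom on recovered reads and with thinned reads the 6-week call was lost.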

How the results depend on the processing

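With the host difference at 6 weeks at 36 genes, a pseudocount of 0.1 gave 15, voom on recovered reads 72, thinned reads 19, array weights 107 and leaving out the library labelled NSG naive replicate 1 54. Leaving out 1 library of 6 weeks gave 8 to 11. Without a filter 32 passed, with median-ratio rescaling 36 and with the 6-week libraries alone 26. The replicate block gave 22, and the correlations of same-numbered libraries of the 2 hosts were 0.033, -0.009 and 0.107, so the numbers were not taken as pairs. For the change from untreated to 6 weeks (1 gene), a pseudocount of 0.1 in limma gave 0 (985 at an unadjusted p under 0.05 as reported), no filter 3, the replicate block 2, thinned reads 3 and leaving out 1 library 1 to 5. For the change from 2 to 6 weeks (1 gene), a pseudocount of 0.1 in limma gave 0 (371 unadjusted as reported), no filter 5, voom 0, thinned reads 2 and leaving out 1 library 1. The cause of these shifts was not tested. No called gene changed sign, and Tnn, Hc and H2-Ea-ps passed in all 15 settings. The difference in mouse read share ranged from 7.01 to 9.63 points. Precision is limited by 3 libraries per host and by 2594895 mouse reads in the shallowest.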

Other observations

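Of the pseudogenes called at 6 weeks, Gm15772 and Gm9625 had log2 differences of -6.18 and -4.04 at 6 weeks, and of -7.32 and -4.97 in untreated tumours when the library labelled NSG naive replicate 1 was left out. Pseudogenes resemble their parent genes, so the source of their reads is uncertain.

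The processed pseudogene Gm6161 was at 149.5 and 145.9 FPKM in NSG naive replicates 3 and 4, at 0 in the library labelled NSG naive replicate 1 and in the 3 NSG libraries of 6 weeks. Tstd3 was at 0.711 and 0.517 FPKM in NSG naive replicates 3 and 4, at 5.08 FPKM in the library labelled NSG naive replicate 1 and at 4.17 to 6.21 FPKM in NSG at 6 weeks. For both genes these 2 untreated libraries stood apart from the treated ones of the same host label. Both were chosen after their values were seen.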
